A study of Mus musculus with 12 samples.

Results

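Genes of the cholesterol synthesis pathway were described in the mouse pancreas across genotype and injection. The members were the genes Hmgcs1, Idi1, Fdps, Fdft1, Sqle, Cyp51 and Msmo1, which encode enzymes of the pathway, and Insig1, which encodes a sterol-dependent brake on it. They were read through every probe set whose annotation names 1 of these symbols and no other. That rule gave 17 probe sets of 22516 in the table and covered 7 of the 8 genes. No probe set carried the symbol of Insig1 alone, so Insig1 was not analysed here. The description below therefore concerns the synthesis enzymes.

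The pathway turns acetyl-CoA into mevalonate, mevalonate into isoprenoid units, these into squalene, and squalene through lanosterol into cholesterol. Its enzyme genes share a transcription factor, SREBP2 (encoded by Srebf2), which the escort protein SCAP carries from the endoplasmic reticulum to the Golgi for cleavage when sterols are low. INSIG proteins hold SCAP back when sterols are high.

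RNA came from the whole pancreas of male mice 2 to 4 months old, given 1 injection an hour for 4 hours. The groups were Mist1KO mice given caerulein, Mist1KO mice given saline, wild type C57BL6 mice given caerulein and wild type C57BL6 mice given saline, with 3 pancreata and 3 arrays in each. Mist1, encoded by Bhlha15, is a transcription factor of secretory cells such as pancreatic acinar cells, which make the digestive enzymes, and caerulein is a cholecystokinin analogue that drives acinar secretion and, in repeated high doses, causes pancreatitis. The part of the gene that was removed, the strain background of the Mist1KO mice and the dose of caerulein were not given in the sources used here, and the design text calls the pancreata biological replicates.

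The 250 bases directly upstream of the annotated gene start are shown for Hmgcs1, Idi1, Cyp51 and Msmo1, the 4 members with the largest differences between Mist1KO and wild type pancreata after caerulein. They are from RefSeq on build GRCm38.p6, written 5′ to 3′ on the strand of the gene. Capitals mark CCAAT boxes (CCAAT, or ATTGG where the box lies on the other strand), the element bound by the factor NF-Y, and the letters TCACNCCAC on either strand, the core of a sterol response element bound by SREBP.
Hmgcs1, chr13:119690101-119690350, plus strand: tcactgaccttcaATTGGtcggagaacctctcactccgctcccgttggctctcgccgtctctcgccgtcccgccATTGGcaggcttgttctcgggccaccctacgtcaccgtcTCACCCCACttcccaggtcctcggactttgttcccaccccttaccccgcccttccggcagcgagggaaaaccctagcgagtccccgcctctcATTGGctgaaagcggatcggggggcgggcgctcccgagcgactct
Idi1, chr13:8885356-8885605, plus strand: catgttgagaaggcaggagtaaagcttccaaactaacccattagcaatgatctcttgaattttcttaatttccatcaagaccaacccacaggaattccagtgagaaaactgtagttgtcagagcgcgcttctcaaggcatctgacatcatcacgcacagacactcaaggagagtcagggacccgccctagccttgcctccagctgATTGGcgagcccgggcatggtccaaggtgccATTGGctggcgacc
Cyp51, chr5:4104698-4104947, minus strand: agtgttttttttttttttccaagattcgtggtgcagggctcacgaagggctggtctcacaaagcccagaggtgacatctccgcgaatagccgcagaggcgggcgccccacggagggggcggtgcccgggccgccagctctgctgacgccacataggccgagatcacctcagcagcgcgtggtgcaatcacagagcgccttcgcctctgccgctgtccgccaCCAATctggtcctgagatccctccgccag
Msmo1, chr8:64733579-64733828, minus strand: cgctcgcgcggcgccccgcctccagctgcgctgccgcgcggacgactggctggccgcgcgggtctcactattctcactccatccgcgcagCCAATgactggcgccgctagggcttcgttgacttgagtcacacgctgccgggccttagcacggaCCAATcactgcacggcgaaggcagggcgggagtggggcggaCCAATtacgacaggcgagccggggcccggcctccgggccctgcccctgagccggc

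The Hmgcs1 sequence held 1 match to TCACNCCAC, starting 137 bases before the gene start, and 3 CCAAT boxes. The Msmo1 sequence held 3 CCAAT boxes, that of Idi1 held 2 and that of Cyp51 held 1, and none of these matched TCACNCCAC in this window. Of 32851 RefSeq promoter windows of the same length, 1.05% held TCACNCCAC and 33.8% held a CCAAT box. The match did not overlap a CCAAT box.

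The genotype labels were checked on Bhlha15. Its brightest probe set read 42.6, 38.3 and 79.4 in Mist1KO caerulein pancreata and 89.9, 95.9 and 106.8 in Mist1KO saline pancreata. It read 776.8, 729.5 and 838.5 in wild type caerulein pancreata and 1601.0, 1619.0 and 1624.3 in wild type saline pancreata, so no Mist1KO array overlapped a wild type array. The tissue label was checked on 5 acinar enzyme genes, Cpa1, Cela1, Cela2a, Ctrb1 and Cel, whose summed signal ran from 42938.8 to 134560 over the 12 arrays. The array medians lay between 70.6 and 90.15. Hybridisation control probe sets stood apart in 1 group, with a geometric mean signal of 446 ± 58.0 in Mist1KO caerulein arrays and means of 914 to 1263 in the other groups (SD, n = 3). The ratio of 3′ to 5′ signal of Actb, a measure of RNA integrity and labelling, separated all 4 groups without overlap. It was lowest in Mist1KO caerulein arrays, at 1.12 ± 0.065 (1.08 to 1.20), and highest in Mist1KO saline arrays, with a mean of 1.82. The means were 1.35 in wild type caerulein and 1.53 in wild type saline arrays. For Gapdh this ratio was 0.918 to 1.02 in Mist1KO caerulein arrays. That range overlapped those of Mist1KO saline (0.946 to 0.996) and wild type caerulein arrays (0.927 to 1.22). In wild type saline arrays the Gapdh ratio was 1.03 to 1.24. The part of the control signals or of these ratios in the results below was not tested.

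Signals below are the deposited intensities of the brightest probe set of a gene, unless another is named, and levels were never compared between probe sets. Differences are on the scale log2(signal + 18.7), given with their standard error and with 3 arrays in each group, and the fold is the antilog there, so changes of dim genes come out too small. A difference was called when its p-value, from limma with Benjamini-Hochberg adjustment over 15716 probe sets, was under 0.05. Because whole tissue was measured, fewer cells of a type and less RNA per cell cannot be told apart.

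**Figure D1:**
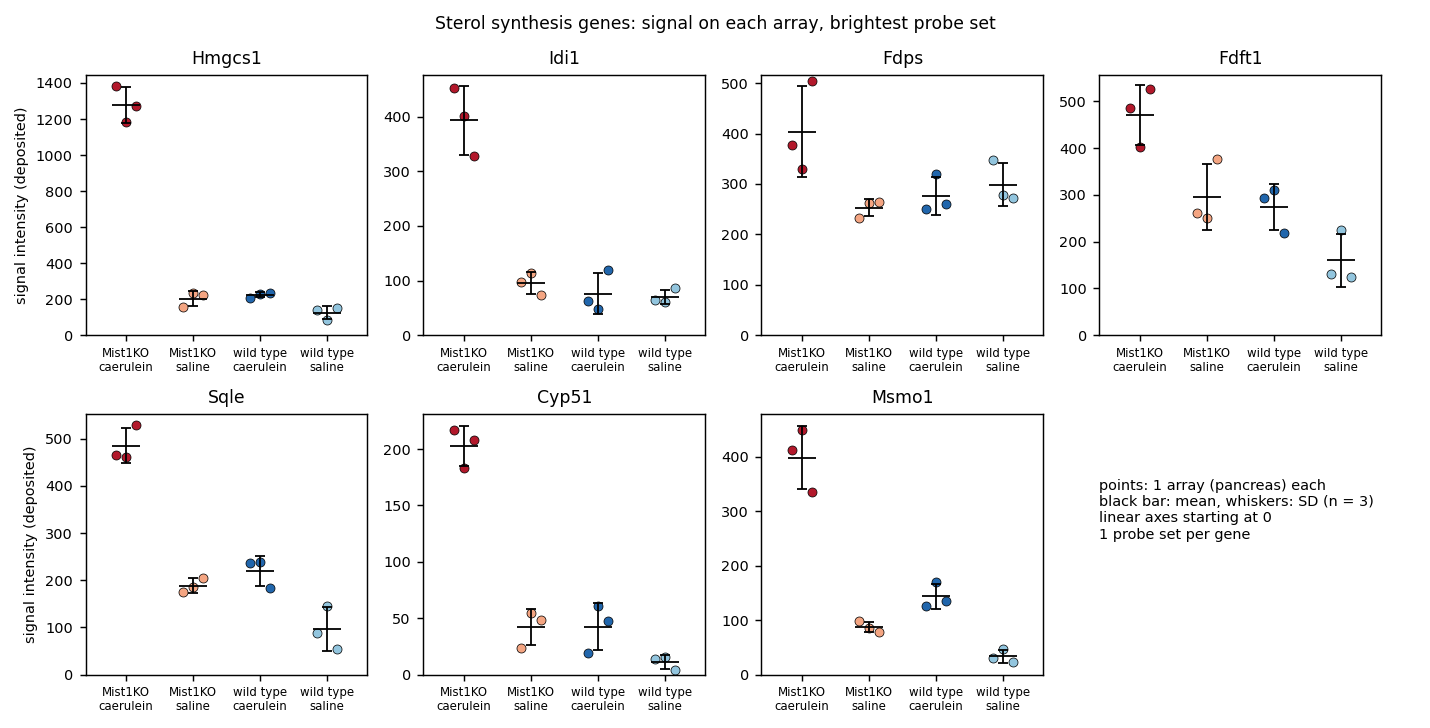
Deposited signal intensity of the brightest probe set of 7 sterol synthesis genes in Mist1KO caerulein, Mist1KO saline, wild type caerulein and wild type saline pancreata (points, 1 array each; bars, mean with SD, n = 3; linear axes starting at 0). For Hmgcs1 the Mist1KO caerulein arrays lie between 1182.9 and 1381.9 and every other array at or below 236.3.

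In the first stretch of the pathway, up to farnesyl diphosphate, Hmgcs1 and Idi1 were several-fold higher in Mist1KO pancreata after caerulein than in any other group. Hmgcs1 encodes the cytosolic HMG-CoA synthase, an early enzyme on the way to mevalonate, and lies on chromosome 13 (119690351 to 119708260, GRCm38.p6). Its signal was 1381.9, 1182.9 and 1270.2 in Mist1KO caerulein pancreata and 154.0, 234.4 and 222.9 in Mist1KO saline pancreata. It was 208.7, 231.1 and 236.3 in wild type caerulein pancreata and 138.4, 83.0 and 150.2 in wild type saline pancreata. The Mist1KO caerulein arrays stood far above the rest, wild type caerulein overlapped Mist1KO saline, and wild type saline lay below all others. With caerulein, Hmgcs1 rose 5.90-fold in Mist1KO pancreata (log2 difference 2.56 ± 0.19, limma adjusted p = 6.88e-07) and 1.75-fold in wild type pancreata (0.81 ± 0.19, adjusted p = 0.00963). Mist1KO exceeded wild type 5.31-fold after caerulein (2.41 ± 0.19, adjusted p = 2.50e-06). After saline the genotypes differed by 0.66 ± 0.19 (adjusted p = 0.0407 with limma).

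On all 4 Hmgcs1 probe sets Mist1KO caerulein was the highest group and wild type saline the lowest. The other 3 probe sets had means of 468 to 1146 in Mist1KO caerulein pancreata and of 47.6 to 105 in wild type saline pancreata. Each of the 4 was called higher with caerulein in Mist1KO and higher in Mist1KO after either injection. With caerulein in wild type 3 of 4 were called, the remaining one at 0.46 ± 0.16 (limma adjusted p = 0.0550). The saline call of the brightest probe set ended when any of 7 arrays was left out, which were all 3 Mist1KO caerulein arrays, Mist1KO saline replicates 2 and 3, wild type caerulein replicate 2 and wild type saline replicate 2 (limma adjusted p between 0.05002 and 0.142).

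Idi1 encodes isopentenyl-diphosphate isomerase, which interconverts the 5-carbon building blocks of isoprenoids, and also lies on chromosome 13 (8885606 to 8892396). Its signal was 452.0, 400.7 and 327.0 in Mist1KO caerulein pancreata and 97.2, 114.3 and 74.0 in Mist1KO saline pancreata. In wild type it was 61.8, 47.4 and 118.5 after caerulein and 63.8, 61.6 and 85.6 after saline. Only the Mist1KO caerulein arrays stood apart, and the other 3 groups overlapped each other. Idi1 rose 3.63-fold with caerulein in Mist1KO (1.86 ± 0.25, limma adjusted p = 0.000116) and was 4.54-fold higher in Mist1KO than in wild type after caerulein (2.18 ± 0.25, adjusted p = 5.61e-05). In wild type the caerulein difference was 0.03 ± 0.25, with a 95% interval from -0.52 to 0.57 (adjusted p = 0.956), so changes within that interval were not excluded. A dimmer Idi1 probe set, below the filter on low signals and not tested, read 144.1, 165.8 and 103.7 in Mist1KO caerulein pancreata and at most 27.1 on every other array.

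Fdps encodes farnesyl diphosphate synthase, at the branch point to sterols, dolichol and prenylated proteins. Its signal was 377.4, 329.3 and 503.5 in Mist1KO caerulein pancreata and 233.0, 261.5 and 265.0 in Mist1KO saline pancreata. Wild type pancreata had 249.7, 320.2 and 259.4 after caerulein and 347.1, 277.9 and 271.8 after saline. The Mist1KO caerulein arrays were above those of Mist1KO saline and of wild type caerulein but overlapped wild type saline. The rise with caerulein in Mist1KO was 0.62 ± 0.16 (limma adjusted p = 0.0142) and the difference between genotypes after caerulein was 0.50 ± 0.16 (adjusted p = 0.0445). In wild type the caerulein difference was -0.11 ± 0.16 (adjusted p = 0.692). The genotype call after caerulein ended when any of 7 arrays was left out, namely Mist1KO caerulein replicates 1 and 3, all 3 Mist1KO saline arrays and wild type caerulein replicates 1 and 3 (adjusted p between 0.0546 and 0.171). The rise in Mist1KO ended without Mist1KO caerulein replicate 3 or Mist1KO saline replicate 1 (limma adjusted p between 0.0557 and 0.0587). A second Fdps probe set, too dim to be tested, read 1.7 to 63.5 over the 12 arrays, and with the mean of both in place of the brighter one the Fdps differences were 0.040 with caerulein in Mist1KO and -0.22 between the genotypes after caerulein (adjusted p = 0.934 and 0.608).

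Of the enzymes that make and oxidise squalene, Sqle differed by both injection and genotype, while the calls of Fdft1 depended on single arrays and on the probe set. Fdft1 encodes squalene synthase, the first enzyme committed to sterols. Its signal was 486.2, 401.8 and 527.7 in Mist1KO caerulein pancreata and 261.5, 250.2 and 376.8 in Mist1KO saline pancreata. In wild type it was 293.8, 310.5 and 218.2 after caerulein and 131.3, 224.8 and 124.0 after saline. Mist1KO caerulein arrays lay above all others, and each following group overlapped the next. Fdft1 was called higher in all 4 comparisons of groups, by 0.65 ± 0.22 with caerulein in Mist1KO (limma adjusted p = 0.0439), 0.74 ± 0.22 with caerulein in wild type (adjusted p = 0.0297), 0.75 ± 0.22 between the genotypes after caerulein (adjusted p = 0.0270) and 0.84 ± 0.22 between them after saline (adjusted p = 0.0246).

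None of the Fdft1 calls held when each array was left out in turn. With caerulein in Mist1KO the call ended without any of the Mist1KO caerulein arrays, Mist1KO saline replicate 1 or 2 or wild type caerulein replicate 1 (limma adjusted p between 0.0502 and 0.150). With caerulein in wild type it ended without wild type caerulein replicate 1 or 2 or wild type saline replicate 1 or 3 (adjusted p between 0.0779 and 0.105). Between the genotypes it ended after caerulein without Mist1KO caerulein replicate 1 or 3 or wild type caerulein replicate 3 (adjusted p between 0.0803 and 0.106), and after saline without Mist1KO saline replicate 3 or wild type saline replicate 1 or 3 (adjusted p between 0.0752 and 0.107). The probe sets of Fdft1 disagreed after caerulein. A second one had the same directions, with 237.7, 214.0 and 249.3 in Mist1KO caerulein pancreata and 45.9, 142.0 and 70.7 in wild type caerulein pancreata (1.37 ± 0.41, limma adjusted p = 0.0302). Its other comparisons of groups did not pass (limma adjusted p between 0.0584 and 0.120). Another read 57.0, 33.9 and 68.2 in Mist1KO caerulein pancreata and 118.8, 112.0 and 117.2 in wild type caerulein pancreata, the opposite order (-0.94 ± 0.37, adjusted p = 0.0901). It did not pass the test. The last one, too dim to be tested, read 35.7, 22.6 and 67.2 in Mist1KO caerulein pancreata and 143.9, 65.5 and 17 in wild type caerulein pancreata, which overlapped. With the mean of all Fdft1 probe sets, 1 of the 4 calls remained, that for caerulein in wild type (0.80, limma adjusted p = 0.0247).

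Sqle encodes squalene epoxidase, a rate-limiting oxygenase of the pathway. Its signal was 466.1, 461.8 and 529.1 in Mist1KO caerulein pancreata and 174.2, 185.2 and 205.2 in Mist1KO saline pancreata. Wild type signals were 237.6, 238.2 and 182.6 after caerulein and 88.4, 145.8 and 54.6 after saline. The Mist1KO caerulein arrays were the highest and the wild type saline arrays the lowest, and the groups between them overlapped. Sqle rose with caerulein by 1.29 ± 0.23 in Mist1KO (limma adjusted p = 0.000980) and by 1.12 ± 0.23 in wild type (adjusted p = 0.00370). Mist1KO exceeded wild type by 1.09 ± 0.23 after caerulein (adjusted p = 0.00426) and by 0.92 ± 0.23 after saline (adjusted p = 0.0191). The saline call ended without Mist1KO saline replicate 3 or wild type saline replicate 3 (limma adjusted p between 0.0504 and 0.0696).

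The genes of the first steps after lanosterol were also highest in Mist1KO caerulein and lowest in wild type saline pancreata. Cyp51 encodes lanosterol 14-alpha-demethylase. Its signal was 217.0, 182.9 and 208.2 in Mist1KO caerulein pancreata and 23.6, 54.4 and 48.3 in Mist1KO saline pancreata. In wild type pancreata it was 19.5, 60.9 and 47.3 after caerulein and 14.1, 15.5 and 3.7 after saline. Mist1KO saline and wild type caerulein overlapped, below Mist1KO caerulein and above wild type saline, where all arrays lay under the offset of 18.7. The mean of log2(signal + 18.7) was 7.79 in Mist1KO caerulein, 5.89 in Mist1KO saline, 5.87 in wild type caerulein and 4.87 in wild type saline. Cyp51 thus passed the filter on low signals only through the group where it is high, and its calls are to be read with that limit. Cyp51 rose 3.73-fold with caerulein in Mist1KO (1.90 ± 0.32, limma adjusted p = 0.000553) and was 3.77-fold higher in Mist1KO than in wild type after caerulein (1.92 ± 0.32, adjusted p = 0.000842). The rise in wild type was 0.999 ± 0.32 (adjusted p = 0.0402). That call ended when any of 8 arrays was left out, which were all 3 Mist1KO caerulein arrays, Mist1KO saline replicate 3, wild type caerulein replicates 2 and 3 and wild type saline replicates 1 and 3 (adjusted p between 0.0507 and 0.148). After saline the genotypes differed by 1.01 ± 0.32, which missed the threshold (limma adjusted p = 0.0502).

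A second Cyp51 probe set matched the first on the Mist1KO caerulein arrays only. It read 82.5, 72.7 and 78.0 in Mist1KO caerulein pancreata and 24.7, 38.3 and 24.5 in Mist1KO saline pancreata, a rise of 1.02 ± 0.24 (limma adjusted p = 0.00748). It read 28.6, 37.1 and 43.3 in wild type caerulein pancreata and 47.9, 64.0 and 39.6 in wild type saline pancreata, so here wild type saline was not the lowest group. The caerulein difference in wild type on that probe set was -0.32 ± 0.24 (adjusted p = 0.382).

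Msmo1 encodes the sterol-C4-methyl oxidase, which starts the removal of the methyl groups at that carbon. Its signal was 412.5, 449.1 and 334.6 in Mist1KO caerulein pancreata and 98.3, 85.3 and 78.5 in Mist1KO saline pancreata. In wild type it was 126.4, 169.3 and 134.7 after caerulein and 29.7, 47.2 and 23.0 after saline. No group overlapped another, in the order Mist1KO caerulein, wild type caerulein, Mist1KO saline, wild type saline. Msmo1 rose with caerulein by 1.97 ± 0.20 in Mist1KO (limma adjusted p = 8.95e-06) and by 1.66 ± 0.20 in wild type (adjusted p = 6.03e-05). Mist1KO exceeded wild type by 1.36 ± 0.20 after caerulein (adjusted p = 0.000359) and by 1.05 ± 0.20 after saline (adjusted p = 0.00460). All 4 calls held when each array was left out in turn.

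**Figure D2:**
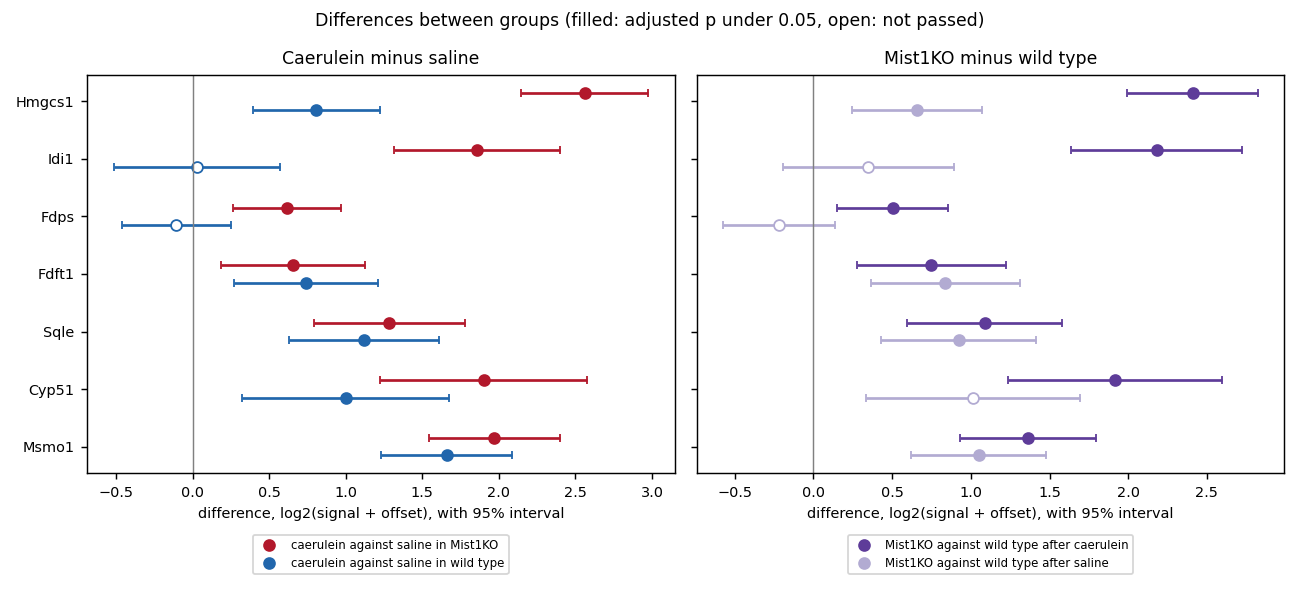
Log2 differences, with 95% intervals, of the brightest probe set of each gene for caerulein minus saline in Mist1KO and in wild type (left) and for Mist1KO minus wild type after caerulein and after saline (right), with filled points for adjusted p under 0.05 and 3 arrays in each group. Idi1 and Fdps have open points near 0 for caerulein in wild type and filled points above 0 for caerulein in Mist1KO.

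Cyp51 is counted among the 7 genes below, though it passed the filter on low signals only through its Mist1KO caerulein arrays. The members were chosen with earlier results of these data known, so the counts are a description. Counted over the 7 genes, 7 were higher and 0 lower with caerulein in Mist1KO, where 10.2% of the 9481 genes tested were called higher and 14% lower. The median difference of the 7 was 1.86, against -0.14 over all genes. With caerulein in wild type 5 were higher and 0 lower, with 8.74% of all genes called higher and 9.96% lower, and the medians were 0.81 for the members and -0.16 for all genes. Between the genotypes after caerulein 7 were higher in Mist1KO and 0 lower, where 9.03% of all genes were called higher and 11.6% lower, and the medians were 1.36 and -0.09. After saline 4 were higher in Mist1KO and 0 lower, with 6.14% of all genes called higher and 6.95% lower, and the medians were 0.84 and -0.09. The members not called after saline were Idi1, Fdps and Cyp51. Ranked from the highest difference between Mist1KO and wild type after caerulein among the 9481 genes, Hmgcs1 stood at 16, Idi1 at 28, Cyp51 at 48, Msmo1 at 130, Sqle at 243, Fdft1 at 567 and Fdps at 1165.

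Over probe sets, 13 of the 17 passed the filter on low signals. Of these 13, 11 were higher with caerulein in Mist1KO, where 10.5% of all 15716 probe sets tested were called higher, and 7 with caerulein in wild type, against 9.19%. Between the genotypes 12 were higher in Mist1KO after caerulein, against 10% of all probe sets, and 7 after saline, against 6.84%. Probe sets of 1 gene share its transcripts, and the comparisons share arrays.

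Whether the response to caerulein differed between the genotypes was tested by the interaction, the response in Mist1KO minus the response in wild type. It was called for 2 of the 7 genes, both higher, where 1.48% of all genes were called higher and 1.87% lower. These were Hmgcs1 at 1.75 ± 0.27 (limma adjusted p = 0.00420) and Idi1 at 1.83 ± 0.36 (adjusted p = 0.0149). For Hmgcs1 it was called on 3 of its 4 probe sets and was 0.95 ± 0.40 on the other (adjusted p = 0.249). For Cyp51 it was 0.90 ± 0.45 on the brightest probe set (adjusted p = 0.332) and 1.35 ± 0.35 on the second (adjusted p = 0.0502).

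The difference between responses was 0.72 ± 0.23 for Fdps (limma adjusted p = 0.119). For Msmo1 it was 0.31 ± 0.28, with a 95% interval from -0.29 to 0.92, and for Sqle 0.17 ± 0.32, with an interval from -0.53 to 0.86. For Fdft1 it was -0.09 ± 0.31, with an interval from -0.75 to 0.58. For these genes a larger response in Mist1KO was not shown, and intervals of this width do not show equal responses either.

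**Figure D3:**
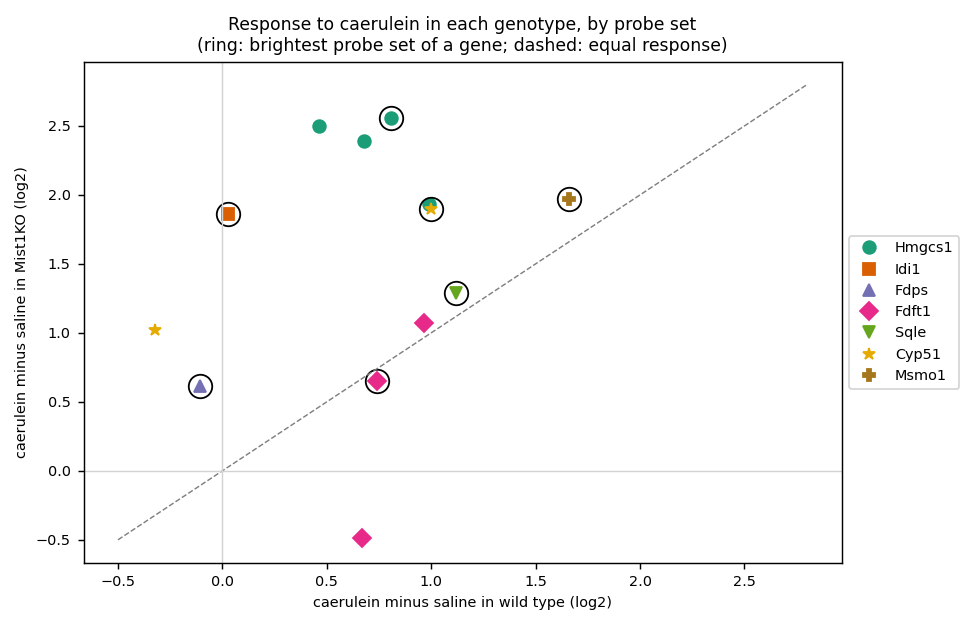
Caerulein minus saline in Mist1KO (vertical axis) against the same in wild type (horizontal axis), both as log2 differences, for the 13 probe sets tested, with a ring round the brightest probe set of each gene and a dashed line where both responses are equal. The 4 Hmgcs1 probe sets, one of them partly under the ringed Cyp51 star, lie at 1.94 to 2.56 on the vertical axis, and Idi1 lies at 0.03 on the horizontal axis.

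Of the genes that control the pathway, Srebf2 gave different answers on its 2 probe sets. The brighter one read 343.8, 270.1 and 299.6 in Mist1KO caerulein pancreata and 363.2, 313.7 and 361.8 in Mist1KO saline pancreata. It read 322.6, 282.9 and 240.2 in wild type caerulein pancreata and 408.9, 407.9 and 333.1 in wild type saline pancreata. It passed the test in no comparison, with the lowest limma adjusted p, 0.0571, for caerulein in wild type (-0.42 ± 0.14).

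The dimmer Srebf2 probe set had the groups in the order seen for Msmo1. It read 254.4, 307.6 and 244.1 in Mist1KO caerulein pancreata, 138.3, 110.4 and 154.1 in Mist1KO saline pancreata, 175.8, 161.5 and 160.1 in wild type caerulein pancreata and 57.6, 74.0 and 81.2 in wild type saline pancreata. No 2 groups overlapped on it. It was higher with caerulein by 0.91 ± 0.17 in Mist1KO (limma adjusted p = 0.00126) and by 1.05 ± 0.17 in wild type (adjusted p = 0.000610), and higher in Mist1KO by 0.63 ± 0.17 after caerulein (adjusted p = 0.0167) and 0.77 ± 0.17 after saline (adjusted p = 0.0102). Which transcripts each probe set reads was not analysed here.

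Srebf1, the gene of the related SREBP1, passed in no comparison, with signals from 221.0 to 477.3 over the 12 arrays. Its lowest limma adjusted p, 0.0509, was for the genotypes after saline, where all Mist1KO arrays lay below wild type (-0.52 ± 0.16). Scap was higher with caerulein in Mist1KO, with 350.8, 387.2 and 284.6 in Mist1KO caerulein pancreata and 210.8, 137.0 and 236.0 in Mist1KO saline pancreata (0.77 ± 0.23, limma adjusted p = 0.0229), and passed in no other comparison. In wild type it read 347.7, 258.3 and 468.6 after caerulein and 345, 336.5 and 249.2 after saline. Both wild type groups overlapped Mist1KO caerulein, and Mist1KO saline lay below wild type saline (-0.64 ± 0.23, limma adjusted p = 0.0797). The Scap call ended without Mist1KO caerulein replicate 1 or 2 or Mist1KO saline replicate 2 (adjusted p between 0.0713 and 0.109). Insig2, a second gene for an INSIG protein, was higher with caerulein in Mist1KO (0.53 ± 0.18, limma adjusted p = 0.0422) and in wild type (0.67 ± 0.18, adjusted p = 0.0171) on its brightest probe set, while its other 2 passed in neither. The wild type call of Insig2 ended without wild type caerulein replicate 1 or wild type saline replicate 1 (adjusted p between 0.0584 and 0.0670). Its Mist1KO call ended without any of 6 arrays, namely Mist1KO caerulein replicates 1 and 2, all 3 Mist1KO saline arrays and wild type caerulein replicate 3 (adjusted p between 0.0530 and 0.173).

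**Figure D4:**
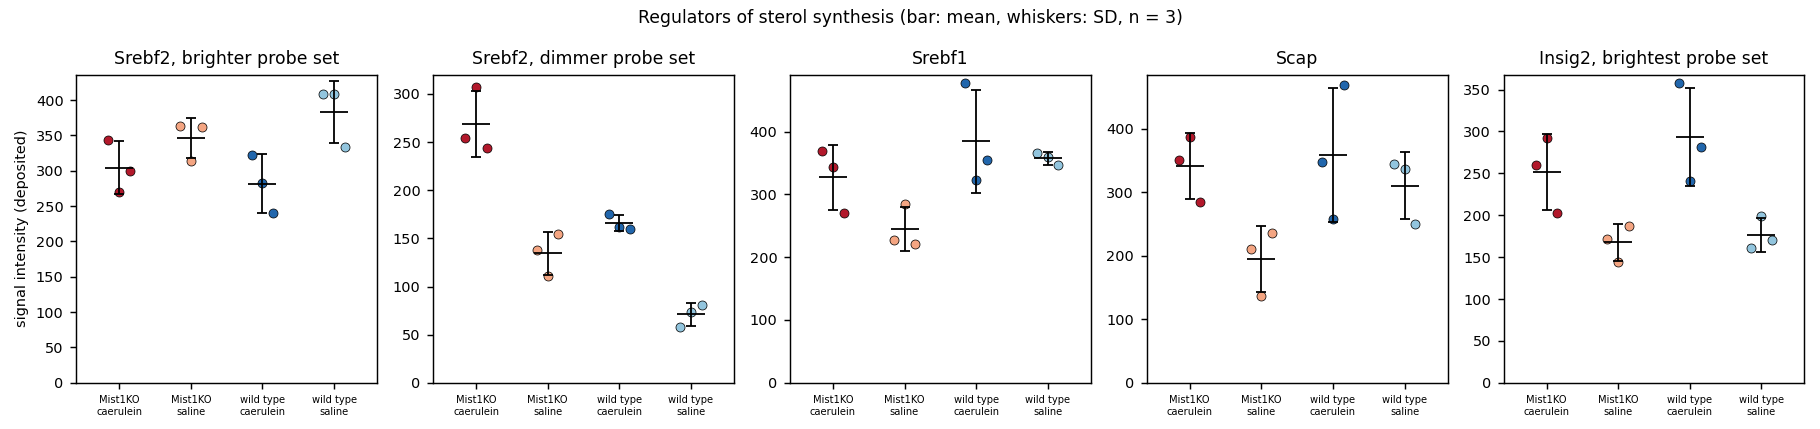
Deposited signal intensity of Srebf2 (both probe sets), Srebf1, Scap and Insig2 in the 4 groups, Mist1KO to the left of wild type and caerulein to the left of saline within each (points, 1 array each; bars, mean with SD, n = 3; linear axes starting at 0). The dimmer Srebf2 probe set lies at 244.1 or above in Mist1KO caerulein and at 81.2 or below in wild type saline pancreata with no overlap of groups. The brighter one separates only wild type caerulein from wild type saline, with caerulein the lower.

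The other enzymes of sterol synthesis did not follow the members as a group. Members and lists were chosen with earlier results of these data known, so this contrast is a description. Of 15 listed, 9 were tested. After caerulein 3 of the 9 were higher in Mist1KO than in wild type and 0 lower, against 9.03% of all genes called higher and 11.6% lower, with a list median of 0.25 and a median of -0.09 over all genes. They were Sc5d, the lathosterol oxidase (0.94 ± 0.17, limma adjusted p = 0.00143), Hsd17b7, a 3-ketosteroid reductase (0.83 ± 0.18, adjusted p = 0.00519), and Lbr, a sterol reductase of the nuclear envelope (0.70 ± 0.17, adjusted p = 0.0117). Sc5d read 312.8, 226.0 and 245.2 in Mist1KO caerulein pancreata and 133.9, 127.0 and 118.4 in wild type caerulein pancreata, without overlap. A second Sc5d probe set read the other way, at -0.10 ± 0.16 (adjusted p = 0.709). These 3 calls held when each array was left out.

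With caerulein in Mist1KO, 2 of these 9 enzymes were higher, Hsd17b7 (0.55 ± 0.18) and Sc5d (0.69 ± 0.17), and 1 was lower, Ebp (-0.69 ± 0.16), the sterol isomerase, with a list median of -0.11 and a median of -0.14 over all genes. Of all genes, 10.2% were called higher and 14% lower in this comparison. The second Sc5d probe set was at -0.44 ± 0.16 there (limma adjusted p = 0.0693). The Hsd17b7 call ended without any of the 6 Mist1KO arrays (adjusted p between 0.0705 and 0.124), and that of Sc5d without Mist1KO caerulein replicate 1 (adjusted p = 0.0507). With caerulein in wild type, 0 were higher and 3 were lower, Lbr (-0.75 ± 0.17), Hsd17b7 (-0.54 ± 0.18) and the decarboxylating dehydrogenase Nsdhl (-0.44 ± 0.15), with a list median of -0.39 and a median of -0.16 over all genes. The shares of all genes there were 8.74% called higher and 9.96% lower. The call of Hsd17b7 ended without any array but wild type caerulein replicate 1 (limma adjusted p between 0.0599 and 0.167). That of Nsdhl ended in 8 of 12 fits, without Mist1KO caerulein replicate 1, Mist1KO saline replicate 2 or 3, wild type caerulein replicate 2 or 3 or any wild type saline array (adjusted p between 0.0541 and 0.168), while that of Lbr held. In wild type caerulein pancreata Lbr read 95.9, 77.7 and 91.1, and in wild type saline pancreata 157.9, 150.7 and 176.0. After saline none of the 9 differed between genotypes at the limma threshold, where 6.14% of all genes were called higher and 6.95% lower. The interaction was called for Lbr (1.03 ± 0.25, limma adjusted p = 0.0391), Hsd17b7 (1.09 ± 0.25, adjusted p = 0.0331) and Sc5d (0.99 ± 0.24, adjusted p = 0.0373), against 1.48% of all genes called higher and 1.87% lower. Each of these interaction calls ended in at least 8 of the 12 fits that left out 1 array (adjusted p up to 0.107).

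Among 10 genes of sterol sensing and uptake tested, of 14 listed, 5 were higher and 1 lower with caerulein in Mist1KO, and 2 higher and 0 lower with caerulein in wild type. Over all genes 10.2% were called higher and 14% lower in the first comparison, and 8.74% and 9.96% in the second. The list medians were 0.46 in Mist1KO and 0.06 in wild type, against -0.14 and -0.16 over all genes. Nfyb, a subunit of the CCAAT-binding factor NF-Y, was higher with caerulein in Mist1KO (1.91 ± 0.24, limma adjusted p = 6.10e-05) and in wild type (2.28 ± 0.24, adjusted p = 1.92e-05). It read 378.8, 438.4 and 222.2 in Mist1KO caerulein pancreata, 89.0, 84.6 and 56.2 in Mist1KO saline pancreata, 599.8, 394.4 and 477.5 in wild type caerulein pancreata and 73.9, 80.6 and 102.8 in wild type saline pancreata, so it followed the injection in both genotypes. A second Nfyb probe set was called in wild type (1.23 ± 0.17, adjusted p = 0.000196) and was 0.47 ± 0.17 in Mist1KO (adjusted p = 0.0616). Stard4, a carrier of cholesterol between membranes, rose with caerulein in Mist1KO by 1.08 ± 0.20 (limma adjusted p = 0.00151). The protease gene Mbtps1, whose product makes the first cut in SREBP, fell by 0.73 on the log2 scale (adjusted p = 0.000384) on its brightest probe set, with its other 2 at -0.53 and 0.66 and not passed. With the mean of its probe sets that call ended (-0.20, adjusted p = 0.477). Between the genotypes 0 of the 10 passed after caerulein, with a list median of -0.12, and after saline 1 was higher and 1 lower in Mist1KO, with a list median of -0.14. The median of all genes was -0.09 in both. Of all genes, 9.03% were called higher and 11.6% lower after caerulein, and 6.14% and 6.95% after saline. The genes called after saline were Mbtps1 (0.43 ± 0.12) and Stard4 (-0.80 ± 0.20). The other 2 Mbtps1 probe sets were at 0.10 and -1.18 there and did not pass (limma adjusted p = 0.865 and 0.121), and the mean of its probe sets was -0.22. The Mbtps1 call ended without any of the 6 saline arrays (adjusted p between 0.0514 and 0.0893), and the Stard4 call without Mist1KO saline replicate 1 or 3 or wild type saline replicate 2 (adjusted p between 0.0611 and 0.0864).

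Fatty acid synthesis is governed by SREBP1. Of its 14 genes tested, 2 were higher and 1 lower with caerulein in Mist1KO, 1 higher and 2 lower with caerulein in wild type, and 1 higher and 1 lower between the genotypes after either injection. The shares of all genes called higher and lower were 10.2% and 14% with caerulein in Mist1KO, 8.74% and 9.96% with caerulein in wild type, 9.03% and 11.6% between the genotypes after caerulein, and 6.14% and 6.95% after saline. In that order the medians of these 14 were -0.06, -0.18, -0.21 and -0.33, against -0.14, -0.16, -0.09 and -0.09 over all genes. Scd2, a stearoyl-CoA desaturase, read 307.7, 282.1 and 640.3 in Mist1KO caerulein pancreata and 110.4, 206.0 and 96.8 in wild type caerulein pancreata (1.42 ± 0.29, limma adjusted p = 0.00374). Fads2, a fatty acid desaturase, read 144.4, 109.2 and 152.0 in Mist1KO caerulein pancreata and 325.9, 222.2 and 255.7 in wild type caerulein pancreata (-0.89 ± 0.16, adjusted p = 0.00127). Both calls held when each array was left out. Of 12 genes of cholesterol export, esterification and LXR targets, 0 were higher and 2 lower in Mist1KO after caerulein, the larger being Cyp27a1, the sterol 27-hydroxylase (-1.14 ± 0.27, adjusted p = 0.00839). With caerulein 0 were higher and 1 lower in Mist1KO, namely Abca1, a cholesterol exporter (-0.56 ± 0.17, limma adjusted p = 0.0286), and 1 higher and 2 lower in wild type. Abca1 was among those lower in wild type too (-0.66, adjusted p = 0.0152). Its second probe set was called lower in both, at -0.60 in Mist1KO and -0.82 in wild type (adjusted p = 0.0356 and 0.00925). The Abca1 call in Mist1KO ended without any Mist1KO caerulein array or Mist1KO saline replicate 1 or 3 (adjusted p between 0.0576 and 0.112). That in wild type ended without wild type caerulein replicate 2 or wild type saline replicate 3 (adjusted p between 0.0645 and 0.0647). After saline 0 were higher and 2 lower in Mist1KO, the exporter Abcg1 (-0.60 ± 0.18) and Ch25h, the cholesterol 25-hydroxylase (-0.66 ± 0.18). The Abcg1 call ended in 8 of 12 fits, without Mist1KO caerulein replicate 3, wild type caerulein replicate 3 or any of the 6 saline arrays (limma adjusted p between 0.0506 and 0.124). The Ch25h call ended without Mist1KO saline replicate 2 or 3 or wild type saline replicate 1 or 2 (adjusted p between 0.0534 and 0.0888). The medians of these 12 were -0.22 with caerulein in Mist1KO, -0.19 with caerulein in wild type, -0.30 between the genotypes after caerulein and -0.22 after saline, beside the shares and medians of all genes given for fatty acid synthesis.

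The 8 tested genes that use the isoprenoids for other ends, dolichol and protein prenylation, gave 0 calls with caerulein in Mist1KO and 1 higher and 2 lower in wild type. Between the genotypes 2 were higher and 1 lower in Mist1KO after caerulein, and 3 higher and 0 lower after saline. Their medians were -0.13 with caerulein in Mist1KO, 0.02 with caerulein in wild type, 0.22 between the genotypes after caerulein and 0.38 after saline, against -0.14, -0.16, -0.09 and -0.09 over all genes. Of all genes, 10.2% were called higher and 14% lower with caerulein in Mist1KO, and 8.74% and 9.96% in wild type. Between the genotypes these shares were 9.03% and 11.6% after caerulein and 6.14% and 6.95% after saline. Zmpste24, the protease that trims prenylated proteins, read 299.5, 285.0 and 295.7 in Mist1KO caerulein pancreata and 116.0, 107.7 and 157.5 in wild type caerulein pancreata (1.11 ± 0.15, limma adjusted p = 0.000176). Nus1, a subunit of the dolichol-making prenyltransferase, read 304.2, 289.5 and 341.9 in Mist1KO caerulein pancreata and 144.8, 154.3 and 116.8 in wild type caerulein pancreata (1.08 ± 0.15, adjusted p = 0.000205). Its other 2 probe sets, at 0.66 and -0.16, did not pass. Over these 5 lists of pathway genes, the calls that held when each array was left out in turn were 6 of 13 with caerulein in Mist1KO, 4 of 14 with caerulein in wild type, 8 of 10 between the genotypes after caerulein, 0 of 9 between them after saline and 0 of 7 for the interaction.

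**Figure D5:**
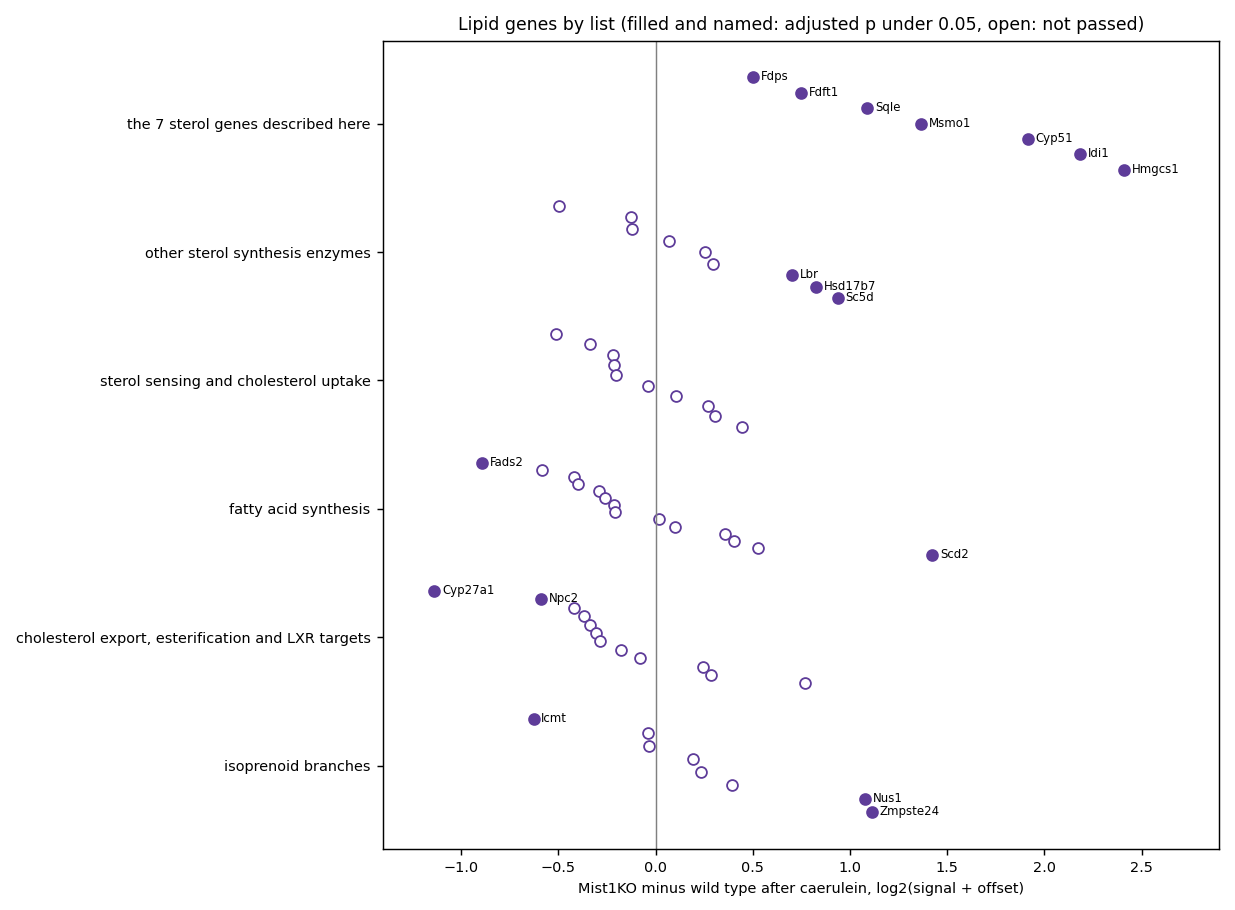
Mist1KO minus wild type after caerulein, as a log2 difference of the brightest probe set, for each tested gene of 6 lists, with called genes (adjusted p under 0.05) filled and named. All 7 described genes lie between 0.50 and 2.41, while in the list of other sterol enzymes 3 of 9 genes are filled and in sterol sensing and uptake 0 of 10.

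The genes whose pattern over the 12 arrays was most like the mean of the members, among 9314 candidates, were Anxa2 (Pearson r 0.974), Ippk (0.966), Nfatc1 (0.965), Jak2 (0.956), Snrpb (0.949), Sdc1 (0.948), Alcam (0.946) and Gatad2a (0.944). The arrays share the group structure, and the 3 Mist1KO caerulein arrays stood apart in each of these genes. With the group means taken out, r ran from -0.29 for Anxa2 to 0.50 for Alcam. Sdc1, the cell surface proteoglycan syndecan, read 2312.3, 2270.8 and 2371.7 in Mist1KO caerulein pancreata, 286.7, 197.7 and 175.7 in Mist1KO saline pancreata, 417.1, 495.3 and 570.5 in wild type caerulein pancreata and 123.6, 79.8 and 98.8 in wild type saline pancreata. Anxa2, a calcium-dependent membrane-binding protein, read 3285.3, 3426.7 and 3382.5 in Mist1KO caerulein pancreata, 819.3, 817.1 and 739.9 in Mist1KO saline pancreata, 759.8, 935.3 and 967 in wild type caerulein pancreata and 419.8, 438.1 and 549.6 in wild type saline pancreata.

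Among the members themselves, r with that mean ran from 0.719 for Fdps to 0.981 for Cyp51 over the 12 arrays. Within groups it ran from -0.48 for Idi1 to 0.83 for Cyp51. Each member is part of the mean it was set against.

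Markers of other cell types were read beside the members. Their counts stand beside the shares of all genes called that are given above for each comparison. The summed signal of the 5 acinar genes was 42938.8 to 66989.2 in Mist1KO caerulein pancreata, 75361.7 to 89487.2 in Mist1KO saline pancreata, 87870.4 to 120992.2 in wild type caerulein pancreata and 102251.7 to 134560 in wild type saline pancreata. All 5 were lower in Mist1KO caerulein pancreata than in Mist1KO saline and in wild type caerulein pancreata (limma adjusted p under the threshold), the comparisons in which all 7 sterol genes were higher. The part of this in the sterol results was not tested. Of 4 tested markers of steroid-making cells, which also run the sterol pathway, 0 were called higher in any comparison. The sum over the 6 such markers with a probe set, tested or not, was 451.4 to 542 in Mist1KO caerulein pancreata and 610.2 to 758.5 in wild type caerulein pancreata. Of the 4 tested, Cyp21a1 was lower in Mist1KO after caerulein (-0.65 ± 0.18), and Hsd3b1 lower in Mist1KO after saline (-0.94 ± 0.24) and with caerulein in wild type (-0.89 ± 0.24). With caerulein in Mist1KO none of the 4 passed. Star was at 0.64 ± 0.25 there, with all caerulein arrays above those of saline (limma adjusted p = 0.0792), and Hsd3b1 at 0.21 ± 0.24. Cyp21a1 and Nr5a1 were at -0.38 and -0.19.

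Of 5 tested liver-type genes, 1 was higher in Mist1KO after either injection and 0 with caerulein in either genotype. That gene was Ttr, at 0.82 ± 0.20 after caerulein and 1.35 ± 0.20 after saline. The others did not pass after caerulein, where Alb was at -0.29, Apoa2 at -0.81, Tat at -0.09 and Cyp2e1 at 0.30. The sum over the 7 liver-type genes with a probe set was 1051.8 to 1348.1 in Mist1KO caerulein pancreata and 809 to 1045.9 in wild type caerulein pancreata. None of 5 adipocyte, 5 islet or 6 macrophage and neutrophil genes tested was called higher in any comparison. The adipocyte sum, over the 7 genes with a probe set, was 1154.3 to 1555.5 in Mist1KO caerulein pancreata and 920.2 to 1555.5 in wild type caerulein pancreata. The islet sum, over the 6 genes with a probe set, was 9573.7 to 10824.2 in Mist1KO caerulein pancreata, below 11012.3 to 16156.6 in wild type caerulein pancreata. The macrophage and neutrophil sum, over the 8 genes with a probe set, was 1078.1 to 1248.4 in Mist1KO caerulein pancreata and overlapped the 869.9 to 1147.7 of wild type caerulein pancreata.

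Some of these markers were lower by the same limma test. With caerulein in wild type 3 of the 6 macrophage and neutrophil genes tested were lower, Adgre1 (-0.85 ± 0.21), Csf1r (-0.68 ± 0.20) and Ngp (-0.81 ± 0.15). The sum over all 8 listed genes with a probe set was 869.9 to 1147.7 in wild type caerulein pancreata and 1292.8 to 1769.8 in wild type saline pancreata. Ngp was also lower in Mist1KO after saline (-0.74 ± 0.15). Of the islet genes, Ins2 (-0.58 ± 0.18, with overlapping groups) and Iapp (-0.45 ± 0.12) were lower in Mist1KO after caerulein, and Iapp was lower with caerulein in Mist1KO (-0.54 ± 0.12). Gcg lay the other way in Mist1KO after caerulein, with all its arrays above wild type (0.53 ± 0.22, limma adjusted p = 0.115), and did not pass. Sst (-0.34) and Chga (-0.44) were negative there and did not pass either. Lpl, of the adipocyte genes, was lower with caerulein in Mist1KO (-0.94 ± 0.16) and in wild type (-0.86 ± 0.16). The part of these in the sterol results was not tested.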

How the data were processed

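RNA of 12 whole pancreata, 3 per group, was measured on Affymetrix arrays, 1 per pancreas, and no array was left out. The authors deposited a linear signal intensity for each probe set on each array. The 2% trimmed means, 151.08 to 151.37, show a scaling of all arrays to 1 level. Neither the summarising software nor any detection calls were given in the sources used here. Signal therefore could not be set against background, and the number of arrays limits the precision.

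Before log2, each value was raised by 18.7, which was the 20th percentile of the table. Control probe sets and those at or below the 30th percentile of mean log2 signal were left out. Group means were estimated from the 12 arrays together by limma 3.58.1 (R 4.3.3; lmFit and eBayes, trend by intensity), with Benjamini-Hochberg adjusted p-values over 15716 probe sets and a threshold of 0.05. The 5 contrasts were tested from both sides. The fit was tested on simulated data. A gene was represented by its brightest probe set with 1 symbol, which 20240 of 22516 probe sets had; 682 had several and 1530 had none.

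Named genes were all members, Srebf1, Srebf2, Scap and Insig2 throughout, the 8 most like genes, and Bhlha15. From the pathway lists, genes were taken from among the up to 4 called per list and comparison with the largest absolute difference. Not every such gene was named in every comparison. Nfyb and Stard4 stand in the list of sterol sensing and uptake. The members and lists were chosen with earlier results of these data known, so a pattern found here is no independent support for them. Replicate numbers are shared between groups, but the correlation of same-numbered deviations was -0.05 to 0.05, so they were not treated as pairs. Alternatives were other offsets, filters, scalings, variance models, arrays in the fit, a replicate block, each array left out and the mean of the probe sets of a gene. Sequences are from RefSeq, and 5 of the 8 members had a promoter entry. Figures were drawn with matplotlib 3.10.9.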

Additional observations from a re-analysis of the deposited data

Results flagged for a closer look

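For some genes the response to caerulein differed between the genotypes by the interaction term, which is the response in Mist1KO minus that in wild type. Among the members these were Hmgcs1 at 1.75 (limma adjusted p = 0.00420) and Idi1 at 1.83 (adjusted p = 0.0149). Neither call ended in any of the 21 alternatives run.

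In the pathway lists the difference was 1.03 for Lbr, 1.09 for Hsd17b7, 0.99 for Sc5d, -0.77 for Mbtps1, 1.25 for Stard4, 1.70 for Scd2 and -1.51 for Mid1ip1, a regulator of lipid synthesis. All 7 had limma adjusted p-values of 0.0209 to 0.0411, and each call ended in some of the alternatives, from 5 of them for Mbtps1 to 15 for Scd2. Mid1ip1 read 1142.4, 1125.3 and 775.0 in Mist1KO caerulein pancreata, 1484.2, 897.4 and 896.0 in Mist1KO saline pancreata, 1230.0, 1684.5 and 1647.1 in wild type caerulein pancreata and 790.6, 540.8 and 388.6 in wild type saline pancreata.

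Among the genes most like the members, the difference was 1.17 for Anxa2, 1.81 for Nfatc1, 1.92 for Jak2 and 1.21 for Sdc1. These genes were chosen for their pattern on the same 12 arrays, in which the Mist1KO caerulein arrays stood apart, so the values are a description and no independent test. The call of Sdc1 ended in 4 of the 21 alternatives, which were no intensity trend and the fits without Mist1KO caerulein replicate 1 or Mist1KO saline replicate 2 or 3 (limma adjusted p between 0.0515 and 0.0585). That of Anxa2 ended with the mean of its probe sets (0.38, adjusted p = 0.642), its second probe set being at -0.29, and those of Nfatc1 and Jak2 in none.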

How the results depend on the processing

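No member was called lower under any of the 22 alternatives (21 for the interaction). The count of members higher ran from 5 to 7 with caerulein in Mist1KO, 3 to 5 with caerulein in wild type, 5 to 7 in Mist1KO against wild type after caerulein, 1 to 5 after saline, and was 2 for the interaction each time, when single arrays were left out. It was 3 in wild type without wild type caerulein replicate 2 or wild type saline replicate 1 or 3, and after saline 1 without Mist1KO saline replicate 3 and 2 without wild type saline replicate 3. With only the arrays of the 2 groups compared it was 3 with caerulein in wild type and 1 for the genotypes after saline, where fewer arrays entered the fit; the interaction was not run so. With the mean of all probe sets of a gene it was 4 with caerulein in Mist1KO and 4 for the genotypes after caerulein, where 6 members were tested, since Cyp51 fell below the filter, as it did at the 50th percentile filter. With the replicate block the calls of Fdft1 with caerulein in Mist1KO (adjusted p = 0.0658), Hmgcs1 after saline (adjusted p = 0.0541) and Fdps after caerulein (adjusted p = 0.0695) ended, with unchanged differences. Centring arrays on their medians moved the share of called genes that were higher to 57.4% with caerulein in Mist1KO, 66.4% in wild type, 55.9% between genotypes after caerulein and 65.3% after saline, against 42.2%, 46.8%, 43.7% and 46.9% as deposited, and brought the median of all genes with caerulein in wild type to -0.029, against -0.16.

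Directions turned mostly for values near 0, and the cause was not tested. With single arrays left out, the caerulein difference in wild type ran from -0.28 to 0.25 for Idi1, -0.21 to 8.76e-05 for Fdps, -0.076 to 0.19 for Srebf1 and -0.033 to 0.37 for Scap. The Mist1KO difference after caerulein ran from -0.24 to 0.16 for Scap, and that after saline from -0.14 to 0.025 for Insig2. The interaction ran from -0.33 to 0.088 for Fdft1, -0.13 to 0.45 for Sqle and -0.26 to 0.0068 for Insig2. With median centring Fdps was 0.024 with caerulein in wild type, Insig2 0.022 after saline and Scap 0.043 after caerulein, and with quantile normalization the interaction of Sqle was -0.0012. With the mean of the probe sets Fdps was -0.22 between genotypes after caerulein, Mbtps1 -0.22 after saline, and Srebf2 0.37 with caerulein in Mist1KO, 0.31 with caerulein in wild type and 0.32 between genotypes after saline. In all, 667 of 753 member values kept direction and side of the threshold, 66 lost the call, 7 gained one and 13 turned.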
